A study of Mus musculus with 6 samples.

Results

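The H3K4me3 status of 10 myeloid lineage genes was examined in a pair of mouse lymphoid progenitor cell lines. The genes were set as a list by their known roles, with no threshold on a measured value, and are the regulators Spi1, Cebpa, Cebpb and Gfi1, the receptor and adhesion genes Csf1r, Itgam and Fcgr3, and the granule and lysosome genes Mpo, Elane and Lyz2. They are 10 of the 21951 protein-coding genes in the GENCODE annotation of GRCm38 (mm10), release M21. Scid.adh.2C2 is a pro-T line with features of DN3 thymocytes, subcloned from Scid.adh, a line that arose from a spontaneous thymic lymphoma of a CB17-Prkdc scid mouse. The other, drawn under its numeric name in the plots and called the pre-B line in the text, is a B cell progenitor line transformed with the Abelson virus. No treatment distinguished the lines, each is a single tumour-derived or transformed line, and each was profiled by 2 H3K4me3 ChIP libraries against 1 input. The authors deposited 1 combined peak list for each line, so that no value per library, no spread between replicates and no sequencing depth can be given. No test between the lines was possible, and the differences below are descriptions of the 2 lists.

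H3K4me3 is a histone mark placed around the start sites of transcribed and poised genes, most often at promoters rich in CpG dinucleotides. Myeloid development depends on the Ets factor PU.1, encoded by Spi1, and on C/EBP factors, which together activate receptor genes such as Csf1r and granule genes such as Mpo and Elane. PU.1 also acts in B cells and is turned down as early thymocytes commit to the T-lineage, and Gfi1, a zinc finger repressor of neutrophil development, is used by developing T cells as well.

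The Scid.adh.2C2 list holds 15513 peaks with a median fold enrichment of 20.3, and the pre-B list holds 19604 with a median of 15.4. The fold enrichment is the peak caller's ratio of ChIP signal over background. It can be ranked only within a list, so the promoter peaks of the 10 genes are given with the share of peaks of the same list that are lower. Folds of the lines set side by side at other peaks are the values of each list and are not a comparison of strength. The T cell markers listed for the check were Cd3e, Cd3g, Thy1, Tcf7, Gata3, Bcl11b and Lck. All marker lists were chosen with earlier results of these data known, so their counts are not an independent check. Of the T cell markers, 7 of 7 were marked in Scid.adh.2C2 against 2 of 7 in the pre-B line. The 2 were Tcf7 (15.2-fold, above 49.4% of the pre-B list) and Lck (16.8-fold, above 55.3%). Of all protein-coding genes, 45.5% and 48.2% were marked. The B cell markers, among them Cd79a, Cd79b, Ebf1, Pax5, Vpreb1 and Igll1, were marked 1 of 7 in Scid.adh.2C2 and 7 of 7 in the pre-B line. Only Vpreb1 of these was marked in Scid.adh.2C2, by a 29.9-fold peak whose summit lies 367 bp from a start site of its neighbour Top3b. In the pre-B line the highest Vpreb1 peak, 21.2-fold, was also nearest to Top3b, at 323 bp. Igll1 was marked there only by an 8.79-fold peak shared with Vpreb1, which contained no Igll1 start site and had its summit 2567 bp away.

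Promoter windows reached 2500 bp to either side of every annotated transcription start site (TSS), and a gene counted as marked if at least 1 bp of any window lay under a peak. The promoter sequences of 8 of the 10 genes were matched by symbol in the RefSeq promoter table (GRCm38.p6), and 5 stretches that end at a start site follow, 5′ to 3′ on the strand of the gene, with CpG dinucleotides in capitals. Cebpb (chr2:167688665-167688914, plus strand) and Gfi1 (chr5:107724344-107724593, minus strand) lie inside H3K4me3 peaks of Scid.adh.2C2. Cebpa (chr7:35119043-35119292, plus strand) is shown because it is CpG-rich and without a peak in either line. Elane (chr10:79886062-79886246, plus strand) and Lyz2 (chr10:117282322-117282522, minus strand) are shown as CpG-poor granule and lysosome promoters without a peak in either line.
Cebpb: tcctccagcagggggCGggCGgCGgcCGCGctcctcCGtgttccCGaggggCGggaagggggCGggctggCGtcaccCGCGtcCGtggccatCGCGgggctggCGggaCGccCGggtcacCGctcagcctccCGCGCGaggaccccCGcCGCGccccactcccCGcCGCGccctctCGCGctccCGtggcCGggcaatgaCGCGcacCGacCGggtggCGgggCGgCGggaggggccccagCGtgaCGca
Gfi1: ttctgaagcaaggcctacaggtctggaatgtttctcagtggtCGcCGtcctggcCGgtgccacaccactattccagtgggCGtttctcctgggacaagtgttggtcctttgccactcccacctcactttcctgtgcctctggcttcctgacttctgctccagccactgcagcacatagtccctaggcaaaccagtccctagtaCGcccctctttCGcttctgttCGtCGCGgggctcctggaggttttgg
Cebpa: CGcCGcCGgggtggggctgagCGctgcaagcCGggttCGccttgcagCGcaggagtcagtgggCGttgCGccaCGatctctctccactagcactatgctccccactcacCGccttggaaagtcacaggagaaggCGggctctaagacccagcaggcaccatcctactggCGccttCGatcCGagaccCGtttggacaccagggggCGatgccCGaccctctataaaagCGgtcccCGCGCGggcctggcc
Elane: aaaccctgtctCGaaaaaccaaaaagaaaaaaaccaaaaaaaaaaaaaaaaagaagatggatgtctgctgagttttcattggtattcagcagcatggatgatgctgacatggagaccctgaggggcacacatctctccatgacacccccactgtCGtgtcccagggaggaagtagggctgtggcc
Lyz2: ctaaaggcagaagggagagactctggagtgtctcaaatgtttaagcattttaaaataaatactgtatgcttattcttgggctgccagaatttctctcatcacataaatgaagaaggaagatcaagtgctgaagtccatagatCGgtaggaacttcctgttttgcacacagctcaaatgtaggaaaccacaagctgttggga
The printed bases of Cebpb hold 41 CpG dinucleotides and those of Cebpa 22, against 9 for Gfi1, 2 for Elane and 1 for Lyz2. The stretches differ in length, with 250 bases for Cebpb, Cebpa and Gfi1, 185 for Elane and 201 for Lyz2. The Gfi1 stretch is from the CpG-poorer of its 2 RefSeq promoters and not from the one nearest the peak summit.

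In Scid.adh.2C2, 4 of the 10 myeloid genes were marked, namely Spi1, Cebpb, Gfi1 and Fcgr3, beside 45.5% of all protein-coding genes, a share close to that of the list. In the pre-B line only Spi1 was marked, 1 of 10, beside 48.2% of all protein-coding genes. Spi1 was thus the 1 gene marked in both lines, a status that 42.2% of all protein-coding genes had. In Scid.adh.2C2 its peak contained no Spi1 start site, whereas a pre-B peak did. Cebpb, Gfi1 and Fcgr3, 3 of 10, had a peak in Scid.adh.2C2 alone, beside 3.28% of all genes. None of the 10 had a peak in the pre-B line alone, beside 5.96% of all genes. The remaining 6 genes, Cebpa, Csf1r, Itgam, Mpo, Elane and Lyz2, had no promoter peak in either line, beside 48.6% of all genes. All 3 granule and lysosome genes were in this unmarked group, which held 48.6% of all genes, and so was the regulator Cebpa. The other regulators were marked in at least 1 line. These groups are small, and a difference between them was not tested. When peaks under 10-fold enrichment were left out, the genes marked in Scid.adh.2C2 were 2 of 10, Cebpb and Gfi1, beside 9689 of 21951 protein-coding genes. In the pre-B line Spi1 stayed marked, beside 10223 of 21951. No gene was then marked in both lines, and Spi1 was marked in the pre-B line alone. Signal too weak for the authors' peak thresholds cannot be seen in these lists, so an unmarked promoter may still carry some H3K4me3.

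**Figure D1:**
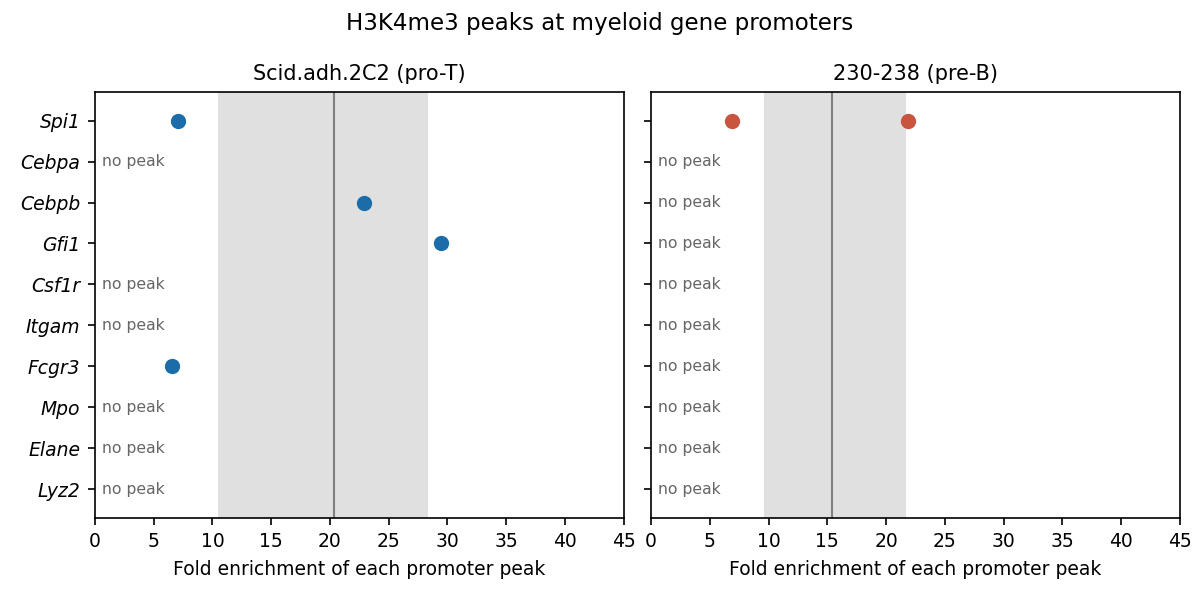
Fold enrichment of every H3K4me3 promoter peak of the 10 myeloid genes (x axis, ratio over background) in Scid.adh.2C2 (left) and the pre-B line (right). Each point is 1 peak, the grey band spans the quartiles of all peaks of the list (10.6 to 28.3 left, 9.72 to 21.6 right) and the line is the median. Gfi1 (29.5) lies above the band of Scid.adh.2C2, Cebpb (22.9) within it, and Spi1 and Fcgr3 below it, and the pre-B line has peaks at Spi1 only.

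Gfi1 had the strongest promoter peak of the 10 genes in Scid.adh.2C2. The gene (ENSMUSG00000029275, chr5:107716657-107726036, minus strand) has 3 annotated start sites, and a single peak of 4191 bp (chr5:107723646-107727836) contained all 3. Its fold enrichment was 29.5, above 79.0% of the peaks of the list, with a −log10 q of 140. It was wider than 97.8% of the peaks. The peak covered 947 bp of Gfi1 exons, 313 of them coding, 1444 bp of introns and 1800 bp upstream of the gene. The summit was in an intron, 535 bp from the nearest Gfi1 start site and 113 bp from a start site of the lncRNA A430072P03Rik, whose window shares the peak, so that the signal cannot be assigned to 1 of the 2 start sites. In the pre-B line no peak was found within 50 kb of Gfi1, and the nearest one lay 126 kb away at the promoters of Glmn and Rpap2. Scid.adh.2C2 had 1 further peak in the locus, 6.06-fold and 1892 bp wide, with its summit 23.4 kb upstream.

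Cebpb, which encodes C/EBPβ, a factor of macrophages and of emergency granulopoiesis, was also marked in Scid.adh.2C2 and not in the pre-B line. The gene (ENSMUSG00000056501, chr2:167688915-167690418, plus strand) is a single exon of 1504 bp, and a peak of 3817 bp (chr2:167688197-167692013) covered the whole of it. The fold enrichment was 22.9, above 57.6% of the list, with a −log10 q of 99.96, and the peak was wider than 96.7% of the list. The summit was not at the Cebpb start site but 1846 bp downstream of it, outside the gene. It lay 416 bp from a start site of the lincRNA A530013C23Rik and 939 bp from a start site of Tmem189, and the peak overlaps the windows of all 3 genes. When a peak was counted only for the gene with the nearest TSS, Cebpb was unmarked. In the pre-B line the nearest peak ended 7.92 kb upstream of the start site, with 8.20-fold enrichment and a width of 1179 bp. The 2 peaks at a Tmem189 promoter further upstream were present in both lines, with 27.8-fold and 34.9-fold enrichment in Scid.adh.2C2 and 25.9-fold and 23.9-fold in the pre-B line.

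At Spi1 the lines shared a weak intronic peak that contained no start site, and only the pre-B line had a peak over a start site. The gene (ENSMUSG00000002111, chr2:91082390-91115756, plus strand) has 4 annotated start sites, a pair at the 5′ end and a downstream pair, at 91096096 and 91096780. Both of the downstream pair are starts of protein-coding transcripts, and which pair these lines use was not tested. Scid.adh.2C2 had 1 peak, of 836 bp (chr2:91082697-91083532), with a fold enrichment of 7.09, above 9.83% of the list, and a −log10 q of 17.2. It lay entirely in an intron, contained no start site, and had its summit 864 bp downstream of the nearest one. The pre-B line had a peak in the same place (chr2:91083124-91083823, 700 bp), of 6.85-fold enrichment, above 7.21% of its list. The 2 peaks overlapped by 409 bp and their summits were 21 bp apart, so both lines had a peak near the bottom of their list at this intronic position.

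The strongest Spi1 peak was found in the pre-B line alone. It spanned 2953 bp (chr2:91096126-91099078), had a fold enrichment of 21.9 with a −log10 q of 149, and was higher than 76.0% and wider than 85.4% of the list. It began 30 bp past the start site at 91096096, contained the one at 91096780, and had its summit 313 bp downstream of the latter. Of its bases, 868 were exonic, 45 of them coding, and 2085 were intronic. No Scid.adh.2C2 peak overlapped it, and the nearest lay 12594 bp away. The pre-B line also had a 9.52-fold peak whose summit was 3.31 kb upstream of the gene, outside the window, which was not in the Scid.adh.2C2 list. The promoter peaks of the neighbours Slc39a13 and Psmc3 were in both lists, at 22.3-fold and 35.3-fold in Scid.adh.2C2 and at 14.0-fold and 26.9-fold in the pre-B line. Peaks around Spi1 were therefore called in both lines, and the difference was at its downstream pair of start sites and the upstream position.

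**Figure D2:**
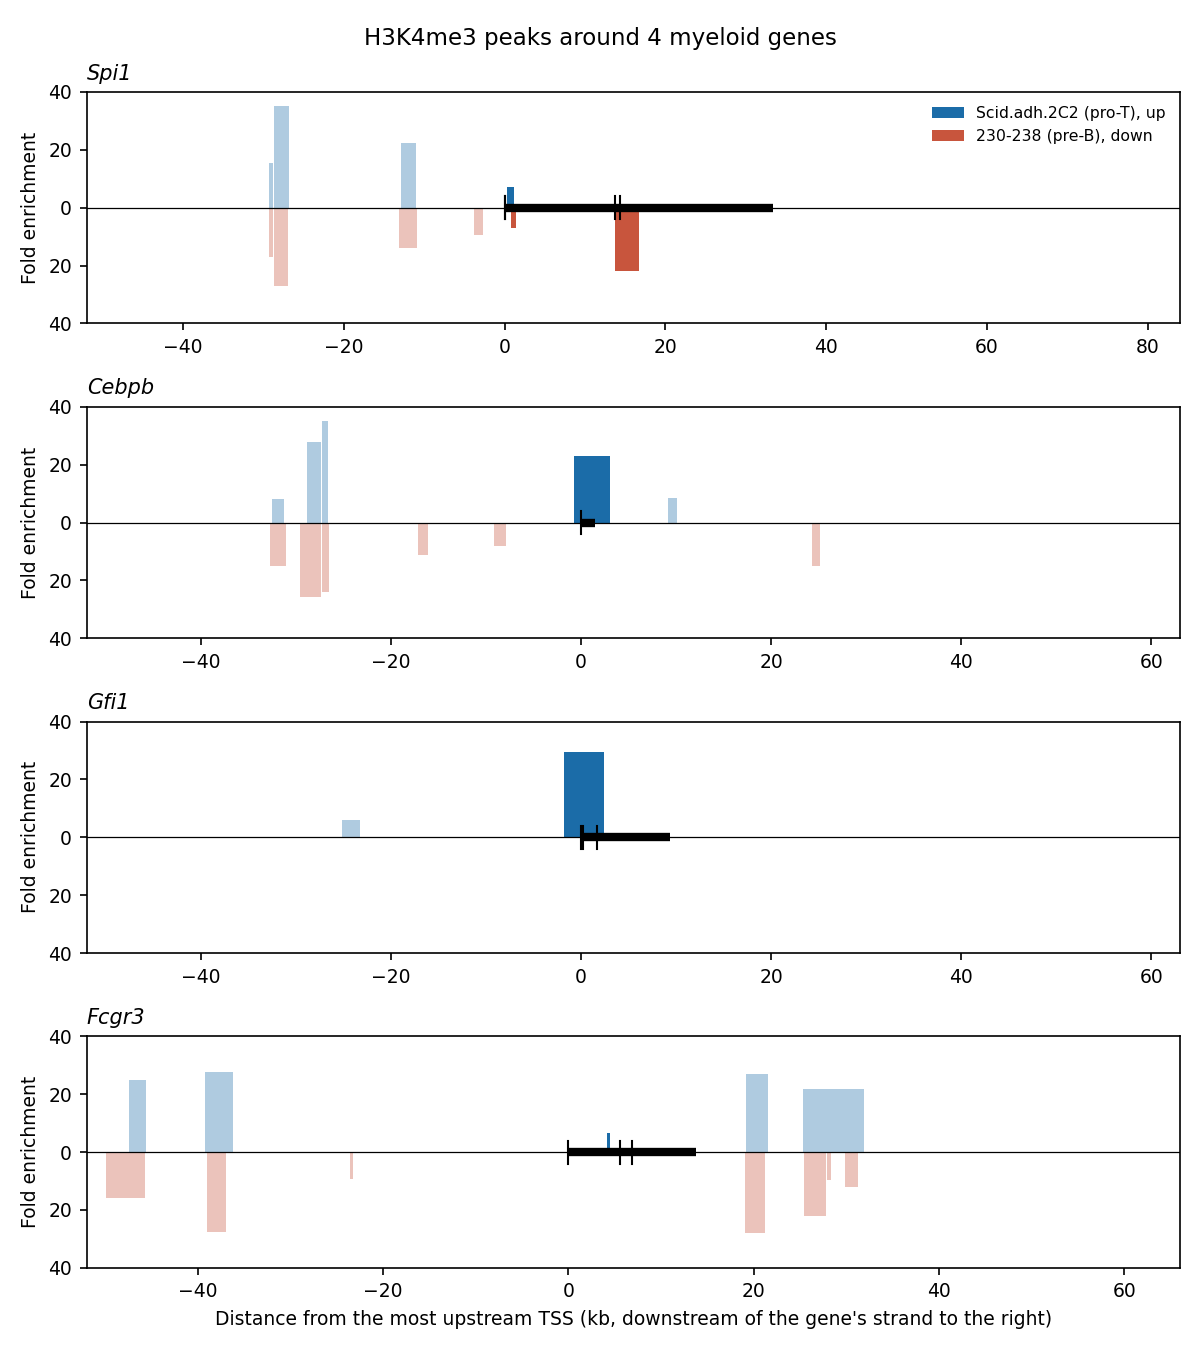
H3K4me3 peaks around Spi1, Cebpb, Gfi1 and Fcgr3, with distance from the most upstream start site in kb (x axis, direction of transcription to the right) and fold enrichment (y axis), Scid.adh.2C2 drawn upwards and the pre-B line downwards. Each bar spans 1 peak, saturated bars lie in a promoter window of the named gene, the black line is the gene and the vertical marks its start sites. Cebpb and Gfi1 have wide bars in Scid.adh.2C2 only, and Spi1 has a 21.9-fold bar at its downstream pair of start sites in the pre-B line only.

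Fcgr3, the low-affinity activating Fc receptor of macrophages and natural killer cells, was marked in Scid.adh.2C2 by the weakest and narrowest peak of the 4 marked genes. The gene (ENSMUSG00000059498, chr1:171051174-171064935, minus strand) has 3 annotated start sites, and the peak of 234 bp (chr1:171060509-171060742) contained none of them. Its fold enrichment was 6.51, above 6.62% of the list, with a −log10 q of 12.0, and only 0.587% of the peaks were narrower. It lay in an intron with its summit 1185 bp upstream of the start site at 171059403. With a window of 1000 bp, or with the most upstream start site alone, Fcgr3 was unmarked. In the pre-B line no peak overlapped the gene, and the nearest lay 12.2 kb from a start site.

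The Fcgr3 locus held strong peaks outside the Fcgr3 promoter windows in both lines. Within 50 kb of the gene RefSeq places 25 tRNA genes, and 10 of them were inside peaks in each line. In Scid.adh.2C2, 4 of the 5 peaks of the locus held a tRNA gene, with 21.7-fold to 27.5-fold enrichment, and the peak in the Fcgr3 window was the one that did not. In the pre-B line, 5 of the 7 peaks held a tRNA gene, with 11.9-fold to 27.8-fold enrichment. The promoter windows of Fcgr3 themselves hold 5 tRNA genes, none of which was in a peak. No tRNA gene was annotated within 50 kb of the other 9 genes.

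Cebpa, the C/EBP factor required for granulocyte and monocyte progenitors, had no peak within 50 kb in either line. The gene (ENSMUSG00000034957, chr7:35119293-35121928, plus strand) was 62.1 kb from the nearest Scid.adh.2C2 peak and 62.0 kb from the nearest pre-B peak. Both peaks were at the promoter of the family member Cebpg, with 37.2-fold enrichment in Scid.adh.2C2 and 25.6-fold in the pre-B line. Of the 2 C/EBP regulators in the list, Cebpb was thus marked in 1 line and Cebpa in none.

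Csf1r, the receptor for macrophage colony-stimulating factor (ENSMUSG00000024621, chr18:61100598-61132149, plus strand), had no peak at any of its 6 start sites. The nearest pre-B peak was closer, 8.58 kb upstream, with 8.62-fold enrichment and a width of 1379 bp, and it overlapped no annotated promoter. In Scid.adh.2C2 the nearest was 42.7 kb upstream, 7.89-fold and 327 bp wide. The Hmgxb3 promoter downstream of the gene was marked in both lines, with 27.8-fold enrichment in Scid.adh.2C2 and 24.3-fold in the pre-B line.

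Itgam, which encodes the integrin chain CD11b (ENSMUSG00000030786, chr7:128062640-128118491, plus strand), was unmarked by the promoter rule and yet had a peak inside the gene in Scid.adh.2C2. This peak (chr7:128080016-128081310, 1295 bp) had 15.0-fold enrichment and lay 17.3 kb downstream of the nearest start site, with 146 bp in coding exons and 1149 bp in introns. It was the only Scid.adh.2C2 peak within 50 kb of Itgam. The pre-B list had none within 50 kb, and the nearest was 91.8 kb upstream.

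The granule genes Mpo and Elane encode myeloperoxidase and neutrophil elastase, and Lyz2 encodes the lysozyme of macrophages and neutrophils. At Mpo (ENSMUSG00000009350, chr11:87793581-87804413, plus strand) the nearest peaks were 34.7 kb upstream in Scid.adh.2C2 and 33.9 kb upstream in the pre-B line. Those peaks were at Mir142 and Tspoap1, and the Mir142hg promoter was marked by a 28.6-fold peak in Scid.adh.2C2 and a 16.2-fold peak in the pre-B line. Elane (ENSMUSG00000020125, chr10:79886247-79888215, plus strand) lies close to another granule protease gene, Prtn3. The nearest peaks to Elane were inside Prtn3, 7.53 kb away in Scid.adh.2C2 and 7.47 kb in the pre-B line, with 13.6-fold and 7.34-fold enrichment. They began 2831 bp and 2862 bp past the 5′ end of Prtn3, and their summits were 1367 bp and 1350 bp before an internal start site at 79879614. Prtn3 was thus marked in both lines by peaks that contained none of its 6 start sites. Lyz2 (ENSMUSG00000069516, chr10:117277331-117282321, minus strand) had no peak within 50 kb, and the nearest were 57.0 kb away in Scid.adh.2C2, at Yeats4, and 56.4 kb away in the pre-B line. In both lists the start sites of these 3 genes were thus free of peaks.

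Among the marked genes, height and width varied together. In Scid.adh.2C2 the order by fold enrichment was Gfi1, Cebpb, Spi1 and Fcgr3, and the order by −log10 q and by width was the same. Gfi1 and Cebpb had peaks over start sites that were wider than 96.7% or more of the list, while the peaks of Spi1 and Fcgr3 contained no start site. Peaks covered 4191 bp of the 6694 bp of Gfi1 promoter windows and 3219 of 5001 bp for Cebpb. They covered 836 of 10704 bp for Spi1 and 234 of 11351 bp for Fcgr3. In the pre-B line the 2 Spi1 peaks covered 3653 of the 10704 bp. All 6 of these peaks had the highest IDR score, 1000, which 14513 peaks of the Scid.adh.2C2 list and 18406 of the pre-B list shared. For scale, the highest peaks of the T cell markers in Scid.adh.2C2 ranged from Lck (16.0-fold, above 38.9% of the list) to Cd3e (41.5-fold, above 98.8%). Lck was marked in the pre-B line as well. The highest peaks of the B cell markers in the pre-B line ranged from Igll1 (8.79-fold, above 19.3%) to Cd79b (29.0-fold, above 96.1%).

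**Figure D3:**
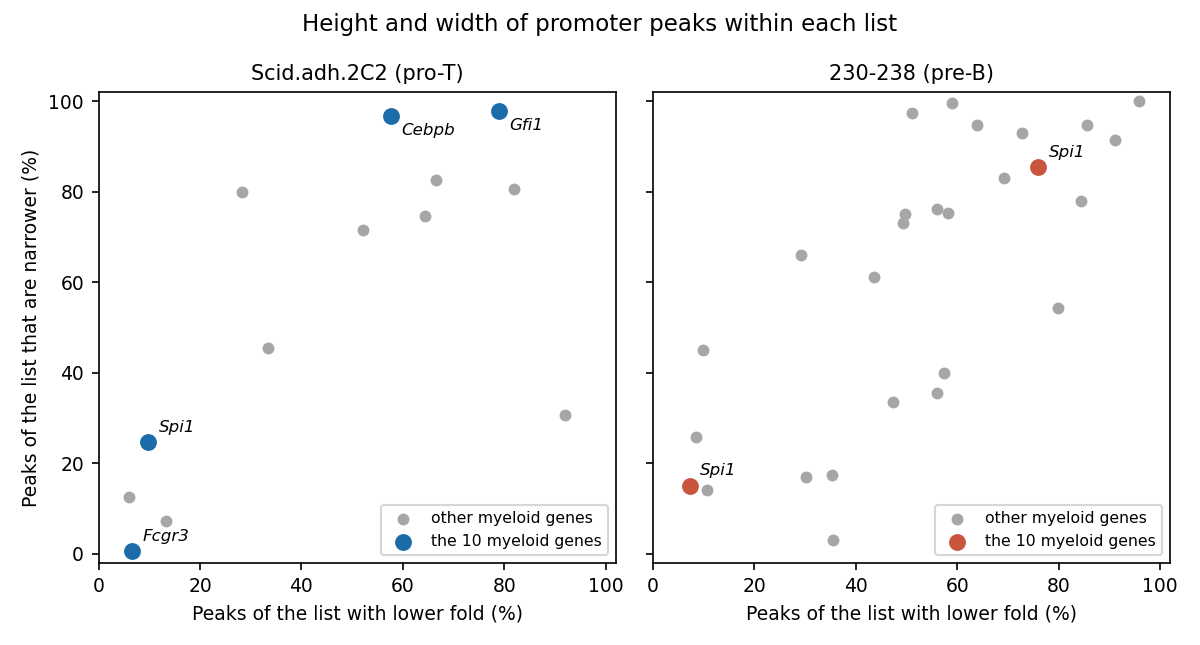
Place of each myeloid promoter peak within the list of its line by fold enrichment (x axis, percent of peaks with lower fold) and by width (y axis, percent of narrower peaks). Coloured points are peaks of the 10 genes, grey points are peaks of the 43 other myeloid genes. Gfi1 and Cebpb are above 96% in width in Scid.adh.2C2, Fcgr3 is below 1%, and Spi1 has 1 low and 1 high peak in the pre-B line.

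The promoters of the 10 genes differed widely in base composition, which was measured as the ratio of observed to expected CpG in the 300 bases of each RefSeq promoter, 250 before and 50 after the start site. Over 16503 protein-coding genes, 78.4% of those in the highest tertile of this ratio carried a peak in Scid.adh.2C2, as did 80.6% in the pre-B line, against 11.4% and 14.2% in the lowest tertile. Cebpb had a ratio of 1.03, with 50 CpG dinucleotides and a GC content of 80.7%, and 92.6% of the genes were lower. Cebpa, with a ratio of 0.853, 29 CpG dinucleotides and a GC content of 67.3%, was also in the highest tertile. Among the genes of that tertile, 16.0% were marked in neither line, as Cebpa was, and 3.42% in Scid.adh.2C2 only, as Cebpb was. The 2 Gfi1 promoters, with ratios of 0.641 and 0.412, were in the middle tertile, where Scid.adh.2C2 alone had a peak at 4.20% of genes. Itgam (0.316), Elane (0.314), Fcgr3 (0.263), Mpo (0.0871) and Lyz2 (0.0680) were in the lowest tertile. Of genes in that tertile, 83.5% were marked in neither line, as 4 of these 5 were, and 2.27% in Scid.adh.2C2 only, as Fcgr3 was.

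**Figure D4:**
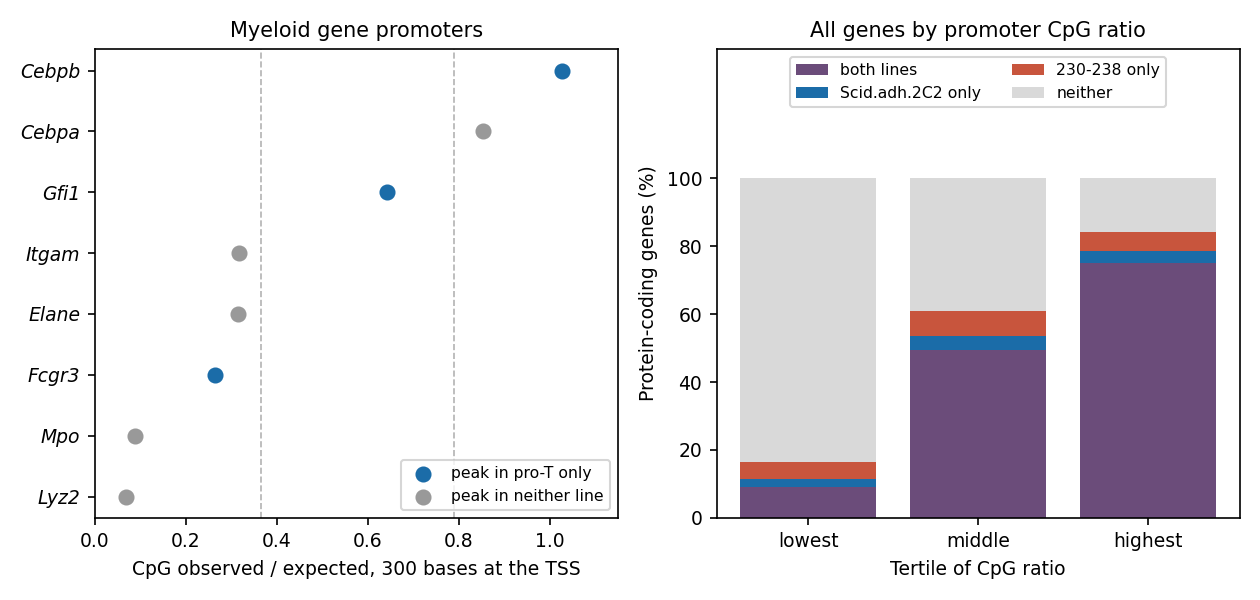
Left, the ratio of observed to expected CpG (x axis) in the RefSeq promoter of 8 myeloid genes, coloured by whether the gene had a peak, with dashed lines at the limits of the tertiles of all genes; for genes with several promoters the highest ratio is drawn. Right, the percent of protein-coding genes with a promoter peak in both lines, in 1 line or in neither (y axis) for each tertile. Cebpa is the 1 gene of the highest tertile without a peak, and 83.5% of all genes in the lowest tertile had none.

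Short motifs were searched on both strands of the same 300 bases, as a description of the sequence. GAGGAA, the core bound by PU.1, was found in 28.3% of 32851 promoters and occurred 3 times at Itgam, 2 times at Mpo and 1 time each at Elane and Fcgr3. It did not occur in the promoters of Cebpa, Cebpb, Gfi1 or Lyz2. TTGCNNAA, a C/EBP motif found in 10.8% of promoters, occurred 1 time each at Fcgr3 and at 1 Gfi1 promoter. TGTGGT, a Runx motif found in 16.8%, occurred 1 time at Lyz2, and TATAAA, found in 13.6%, occurred 1 time each at Cebpa and Cebpb.

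A further 43 myeloid genes, grouped by role, were counted by the same rule. In Scid.adh.2C2, 7 of the 43 were marked (16.3%, beside 45.5% of all protein-coding genes), and in the pre-B line 18 were (41.9%, beside 48.2%). All 7 were marked in both lines (16.3%, beside 42.2%), none in Scid.adh.2C2 alone (beside 3.28%), and 11 in the pre-B line alone (25.6%, beside 5.96%). The remaining 25 were marked in neither line (58.1%, beside 48.6%). Of the 10 genes, by contrast, 3 had a peak in Scid.adh.2C2 alone and none in the pre-B line alone, beside 3.28% and 5.96% of all genes. This difference between the lists was not tested. With peaks of at least 10-fold enrichment only, Spi1 was marked in the pre-B line alone, so the count of none depends on a weak Scid.adh.2C2 peak. With a window of 1000 bp, 4 of the 43 were marked in Scid.adh.2C2, beside 9737 of 21951 protein-coding genes. Several of the 11 genes, among them Irf8, Fcgr2b and Tlr4, are known to be used by B cells as well as by myeloid cells.

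Of 6 further regulators, 1 was marked in Scid.adh.2C2 against 3 in the pre-B line. Irf8, a factor of monocytes, dendritic cells and B cells, had a 28.9-fold peak of 10000 bp in the pre-B line that contained 5 start sites and was wider than 99.96% of the list. Zeb2, a repressor active in monocytes, had a 21.1-fold peak in the pre-B line. Of the 4 growth factor receptor genes, none was marked in Scid.adh.2C2 and 3 were marked in the pre-B line. They were Csf2ra (22.9-fold), the gene of the specific chain of the GM-CSF receptor, Csf2rb (18.9-fold), that of the chain it shares with other cytokine receptors, and the paralogue Csf2rb2 (17.6-fold). Csf2rb and Csf2rb2 are close in sequence, so that reads may have been split between them in mapping. Csf2rb (chr15:78325752-78353847), Csf2rb2 (chr15:78282507-78305721) and the oxidase gene Ncf4 (chr15:78244801-78262580) also lie on 1 stretch of chromosome 15, so their calls are not from separate regions. Csf3r, the G-CSF receptor gene, was unmarked in both, as was Csf1r.

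Of 10 further surface genes, 2 were marked in Scid.adh.2C2 against 3 in the pre-B line, beside 45.5% and 48.2% of all protein-coding genes. The difference was Tlr4, the endotoxin receptor, with a 17.7-fold peak of 7040 bp. Itgb2, which encodes the partner chain of CD11b, was marked in both lines, with 30.6-fold enrichment in Scid.adh.2C2 and 13.8-fold in the pre-B line. Cd68 was also marked in both, at 25.7-fold and 26.5-fold, by peaks whose summits were nearer to start sites of its neighbour Mpdu1 than to its own. Of the 5 Fc receptor and adaptor genes, 1 was marked in Scid.adh.2C2 against 2 in the pre-B line, beside the same shares. The inhibitory receptor gene Fcgr2b had a 15.7-fold peak of 4788 bp in the pre-B line only, the reverse of Fcgr3.

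Of 13 further granule genes, 2 were marked in Scid.adh.2C2 against 3 in the pre-B line, beside 45.5% and 48.2% of all protein-coding genes. Mmp9, a secreted gelatinase gene, was the additional one, by a 14.7-fold peak that began 11835 bp past the 5′ end of the gene, with its summit 1146 bp before an internal start site at 164954386. The other 10 were unmarked in both lines, beside 48.6% of all protein-coding genes, as were Mpo, Elane and Lyz2. Of the 5 genes of the phagocyte NADPH oxidase, 1 was marked in Scid.adh.2C2 against 4 in the pre-B line, beside the same 45.5% and 48.2%. Cyba was marked in both lines, and Ncf1 (15.3-fold) and Ncf4 (24.6-fold, 4021 bp) were among those marked in the pre-B line only. The highest fold of the 43 genes in Scid.adh.2C2 was at Cebpe (34.6-fold), a factor of late granulocytes, from a peak whose summit was 2385 bp upstream of the nearest Cebpe start site and which contained none. Cebpe was marked in the pre-B line as well, at 17.3-fold, with the summit 2360 bp upstream.

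**Figure D5:**
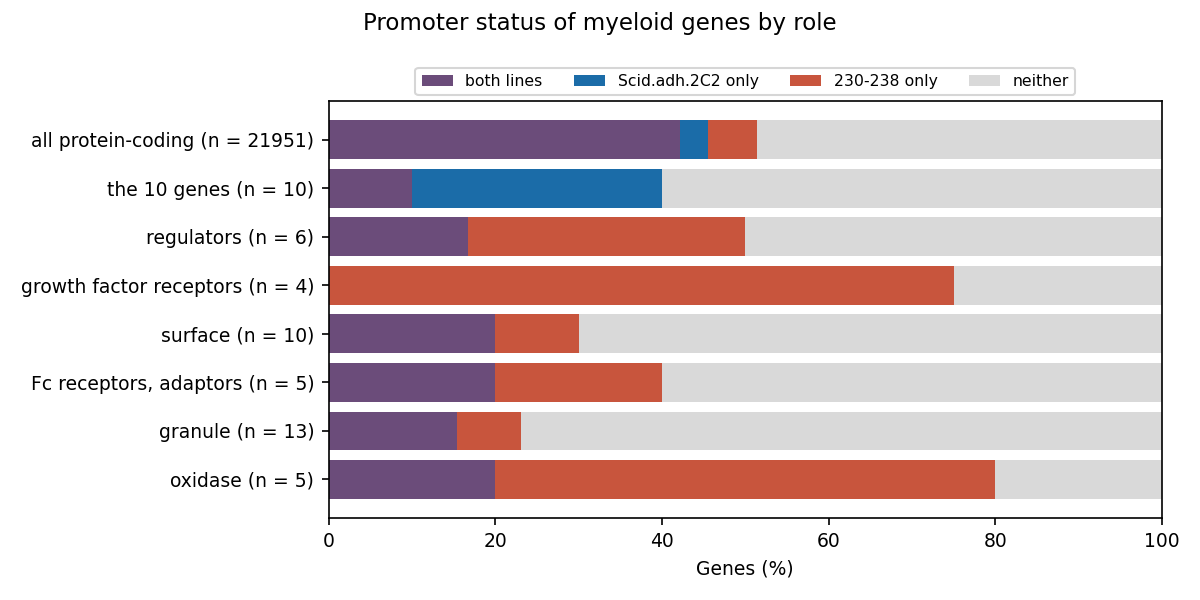
Percent of genes (x axis) with a promoter peak in both lines, in Scid.adh.2C2 only, in the pre-B line only or in neither, for all protein-coding genes, for the 10 myeloid genes and for the 43 other myeloid genes by role, with the number of genes in brackets. With peaks of every fold counted, the 10 genes include 3 marked in Scid.adh.2C2 alone, beside 3.28% of all protein-coding genes. No role group of the other 43 includes any.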

How the data were processed

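H3K4me3 ChIP-seq peaks of Scid.adh.2C2 and of the Abelson-transformed pre-B line were analysed. Per the labels and the methods of the study, the authors trimmed reads with Trim Galore 0.6.7, mapped them to mm10 (GRCm38) with Bowtie2 2.4.4, called peaks with MACS2 2.2.7.1 in narrow mode at a q threshold of 0.05 against the input of the line, and kept the optimal set at an IDR threshold of 0.05. The deposited IDR score, fold enrichment ratio, −log10 p-value and −log10 q-value were taken from the authors' peak caller unchanged. The lists combine the 2 ChIP libraries, so depth and replicate spread are unknown and no test was run.

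GENCODE release M21 gave the genes and TSSs. Percentiles, distances, exon overlaps and CpG ratios were computed with Python 3.11.15, numpy 2.4.6 and pandas 2.3.3, and the figures with matplotlib 3.10.9. The overlap functions were tested on simulated peaks. The tRNA genes, and the promoter sequences of the members other than Spi1 and Csf1r, were from RefSeq. The members and all gene lists were chosen with earlier results of these data known. All 10 members are named, with those of the 43 other myeloid genes that were marked in exactly 1 line or had the 3 highest folds in a line, and genes sharing a peak with a member; Prtn3, Cyba and Csf3r, neighbours at the loci and example markers are named outside this rule, chosen after their values were seen. Some members of the counted lists are not reported here by name. Alternatives tried were windows of 1000 bp and 5000 bp, a minimum of 10-fold enrichment, an IDR score of 1000 alone, lists of equal length, the summit inside the window, the most upstream TSS, coding TSSs, the nearest TSS, merging of peaks within 1000 bp and the order by −log10 q.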

Additional observations from a re-analysis of the deposited data

How the results depend on the processing

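Of 113 values recomputed under an alternative, 109 were the same (for counts, within 1.5 times of the reported one), and 4 moved. A fold entered this count only where the gene kept a peak, so lost peaks are not among the 4. Lost were the Fcgr3 peak (window of 1000 bp, 10-fold minimum, most upstream TSS), the Cebpb peak (nearest TSS) and the Scid.adh.2C2 Spi1 peak (10-fold minimum). Most folds that remained were read from the same peak, so their sameness says little. With peaks of at least 10-fold enrichment only, the marked myeloid genes were 2 of 10 in Scid.adh.2C2 (Cebpb and Gfi1) in place of 4, and 0 were marked in both lines in place of 1. Spi1 was then marked in the pre-B line alone. With a window of 1000 bp, 4 of the 43 other myeloid genes were marked in Scid.adh.2C2 in place of 7. With the most upstream TSS only, the highest Spi1 peak in the pre-B line was 6.85-fold in place of 21.9-fold, since the downstream pair of start sites was left out. Members marked in Scid.adh.2C2 were 3 without Fcgr3 (window of 1000 bp, or most upstream TSS) and 3 without Cebpb (nearest TSS), and in the pre-B line the count was 1 under every alternative. Peak widths were unchanged by merging peaks within 1000 bp. No paired analysis was possible because each list combines its replicates, and for the same reason no replicate could be left out. The depth of the libraries is unknown, so that an absent peak cannot be told apart from one below the threshold.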

Other observations

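Of 5 erythroid genes listed as a check for another blood lineage, among them Gata1, Klf1, Epor and Tal1, 2 were marked in each line (40%). This share is close to the 45.5% of all protein-coding genes marked in Scid.adh.2C2 and the 48.2% in the pre-B line. Klf1, an erythroid zinc finger factor, was marked in both lines, with 18.6-fold enrichment in Scid.adh.2C2 and 13.8-fold in the pre-B line, by peaks that contained no Klf1 start site. Epor, the erythropoietin receptor gene, had an 8.84-fold peak of 875 bp in Scid.adh.2C2 only. Gata1 and Tal1 were marked in neither line.

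Upstream of the Mir142 promoters near Mpo, a region outside any annotated promoter window had a 35.2-fold peak in Scid.adh.2C2 and an 18.4-fold peak in the pre-B line, with summits 42.1 kb and 42.2 kb upstream of Mpo.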
